A study of Mus musculus with 23 samples.

Results

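Receptors for the transmitters glutamate, GABA and glycine were followed through 47 genes in mouse cells of the oligodendrocyte lineage. The genes were taken by symbol, as every gene of the AMPA (Gria, 4 genes), kainate (Grik, 5), delta (Grid, 2), NMDA (Grin, 7), metabotropic glutamate (Grm, 8), GABA-A (Gabra, Gabrb, Gabrg, Gabrd and Gabre, 14), GABA-B (Gabbr, 2) and glycine (Glr, 5) receptor families present in all tables used. They are 47 of the 35385 gene symbols in each count table of the SOX6 experiment and of the 35383 symbols in the table of sorted cells. The rule uses gene symbols alone.

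The study sequenced polyadenylated RNA of oligodendrocyte progenitor cells (OPCs) and oligodendrocytes (OLs) derived in culture from the mouse epiblast stem cell lines EpiSC5 (strain 129SvEv) and 129O1 (strain 129S1/SvImJ), in 23 libraries. Its title concerns the timing of oligodendrocyte maturation. In the SOX6 experiment, all groups, controls included, were infected with a lentivirus that carries Cas9 and a guide RNA, and were selected for 96 hours in puromycin at 500 ng/mL. Sox6 codes for a SOX transcription factor, and targeted and control cells came from 1 batch of OPCs.

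The OL groups spent 60 hours in differentiation-permissive medium, which lacks the thyroid hormone T3, and carried Sox6 guide 1 (3 libraries), Sox6 guide 2 (3 libraries) or a non-targeting guide (control OLs, 3 libraries). The OPC groups stayed in growth medium for the same time and carried guide 1 (2 libraries), guide 2 (3 libraries) or the non-targeting guide (control OPCs, 3 libraries). A further set held OLs sorted for the surface marker O1 (3 libraries) and sorted OPCs (3 libraries), with no virus named for them. The cultures called OLs were not sorted. Libraries of a group are named A, B and C, the letters of the deposited columns.

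AMPA, kainate, delta and NMDA receptors are ion channels built from 4 subunits that glutamate opens, with delta receptors a relative that glutamate does not open. Metabotropic glutamate receptors and GABA-B receptors signal through G proteins, while GABA-A and glycine receptors are chloride channels built from 5 subunits. OPCs are known to receive synapses from neurons and to carry AMPA, kainate, NMDA and GABA-A receptors, and much of this input is known to be lost as the cells mature.

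Total estimated counts ran from 13124580 to 18551822 in OLs and from 13967438 to 16958611 in OPCs; the depth behind the sorted libraries is unknown. Sox6 messenger RNA was lower in every targeted library. It had 157 to 259 CPM (counts scaled to a fixed library total, with that total corrected by the trimmed mean of M values, TMM) in targeted OLs, against 387 to 437 CPM in control OLs, and 67.4 to 88.9 CPM in targeted OPCs, against 165 to 234 CPM in control OPCs. Library B of guide 1 OLs stood apart: its deviation from the other libraries of its group had a Spearman correlation of -0.46 with transcript length across 12582 genes, where libraries A and C had 0.36 and 0.42; in control OPCs, libraries A and C had -0.27 and 0.27. Among the receptor genes, 24 had a length in every library, and their median length lay at percentile 80.2 of all genes. The counts of receptor genes and of the further lists called in targeted OLs, and the summed markers, are therefore given with and without that library. Nothing in the labels says whether the libraries within a group are separate cultures; p-values reflect the spread among these samples alone, and that spread may be technical.

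Of the 47 genes, 21 reached a group mean of 1 TPM (transcripts scaled for gene length and to a fixed library total, so that genes can be compared) in at least 1 of the 8 groups, and 14 reached 10 TPM. The other 26 stayed below 1 TPM in every group mean, with 0.826 TPM as the highest (Grm4, in control OLs). Gabra6 and Glra3 were listed at 0 in all 23 libraries. Grm5, a receptor coupled to calcium release, had the highest level of all receptor genes in every cultured group, with group means from 83.8 to 117 TPM. In sorted OLs the order was different, with Gria2 first at 140.1 ± 16.5 TPM, then Grik3 at 123 ± 5.08 TPM, Grik5 at 54.9 ± 4.37 TPM and Gabbr1 at 41.1 ± 10.1 TPM (SD, n = 3). Gria2 and Grik3 differed there by less than the spread of Gria2, which ran from 125 to 157 TPM, against 118 to 127 TPM for Grik3.

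**Figure D1:**
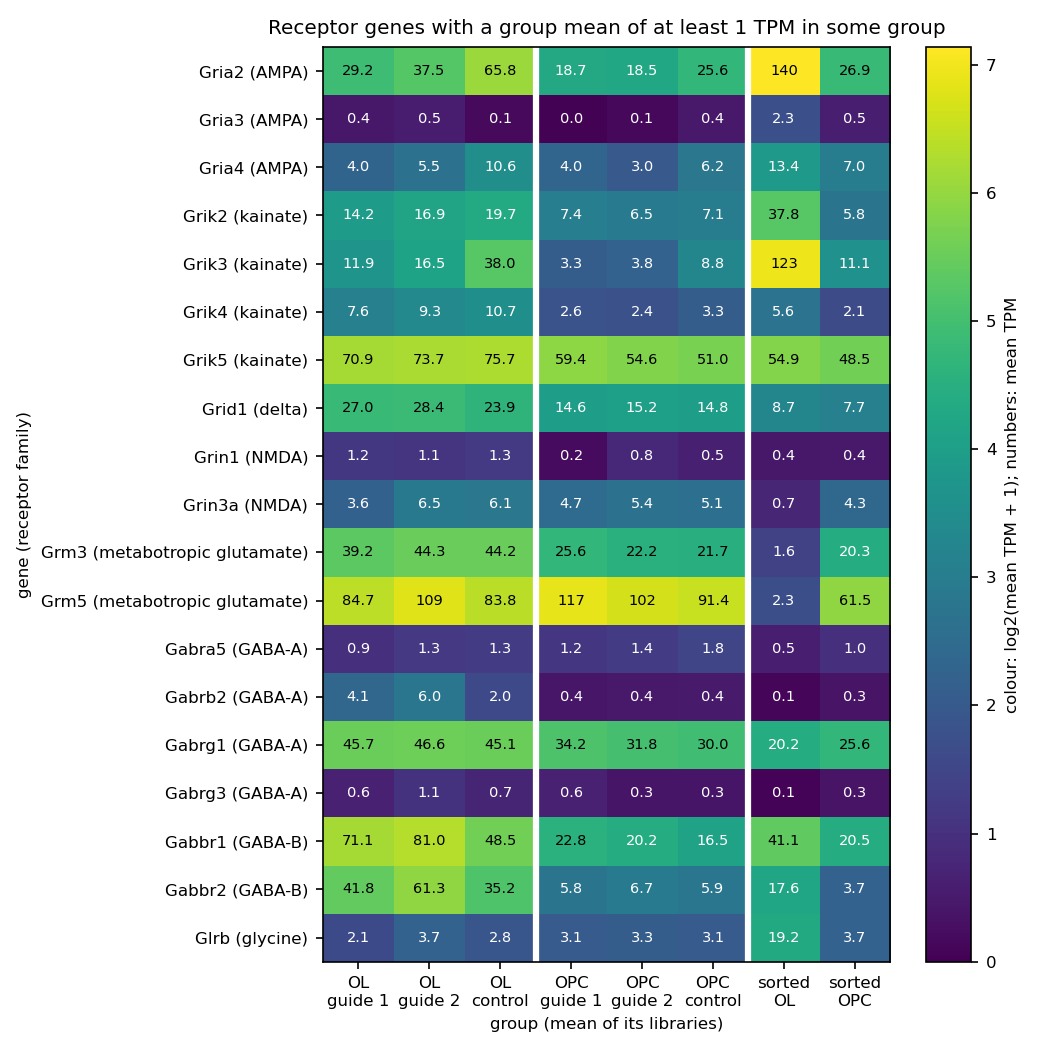
Mean TPM of 19 of the receptor genes that reached 1 TPM in some group, by family (rows) and group (columns); colour is log2(mean TPM + 1) and the printed numbers are mean TPM. Grm5 has 2.3 TPM in sorted OLs and 83.8 TPM or more in every cultured group, while Grik3 has 123 TPM in sorted OLs and 38.0 TPM in control OLs.

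Within families, a few subunits carried most of the transcripts. Gria2, whose edited product makes AMPA receptors nearly impermeable to calcium, held 75.2% to 91.4% of the summed AMPA TPM in every library of the sorted cells and 76.8% to 89.0% in OPC cultures. Gria1 reached 0.210 TPM in its highest library. Grik5, a kainate subunit that needs a Grik1 to Grik3 partner to form a channel, was at 48.5 to 75.7 TPM in all group means. NMDA genes were low. The obligatory NMDA subunit gene Grin1 did not exceed 1.70 TPM in any library, and the summed NMDA level was between 1.10 and 9.59 TPM, with 42.5% to 87.4% of it in cultured libraries from Grin3a, whose product lowers the calcium entry through NMDA receptors. An antisense gene shares 1307 exon bases with Grin1, and because the kit keeps no strand, their reads cannot be told apart.

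The GABA-A family was uneven in the same sense. Gabrg1, a gamma subunit, ran from 19 to 49.9 TPM over all 23 libraries. The 6 alpha subunit genes, of which a classical GABA-A receptor needs at least a pair of copies, summed to between 0.508 and 2.54 TPM. Gabrg1 lies on chromosome 5 in a cluster with Gabra2, Gabra4 and Gabrb1, with no further receptor gene of this set between them, and the highest level of these 3 neighbours in a library was 0.185 TPM (Gabra2). Among glycine receptor genes, only Glrb, the beta subunit, exceeded 1 TPM in any library.

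Targeting of Sox6 lowered Grik3 in OLs and in OPCs, lowered Gria2 in both, lowered Gria4 in OLs and raised Gabbr1 in OLs. Fold changes below are the mean of both guides minus control, from edgeR's quasi-likelihood test, with p adjusted by Benjamini and Hochberg's method across every gene tested and a threshold of 0.05. In targeted OLs, 26 of the 47 genes passed the filter on low counts, 1 was higher and 3 were lower, where 3.13% and 3.37% of all 13447 genes tested were higher and lower. In targeted OPCs, 25 genes passed the filter, none was higher and 2 were lower, where 1.95% and 1.63% of all 13358 genes tested were higher and lower. Leaving out control OPC library B left 1 receptor gene, and leaving out control library C gave 4; without library B of guide 1, the OL count was 8. The median log2 change of the receptor genes tested was 0.06 in OLs and 0.0039 in OPCs, and that of all genes was -0.00078 in OLs and -0.0049 in OPCs. At an unadjusted p under 0.05 there were 11 receptor genes in OLs and 9 in OPCs. Fewer cells that express a gene and less RNA per cell cannot be told apart in these bulk samples.

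Grik3 encodes the kainate subunit GluK3, known for low sensitivity to glutamate. It lies at chr4:125490700-125714173 on the plus strand of GRCm38 (mm10). Grik3 had 114, 66.7 and 115 CPM in guide 1 OLs and 132, 131 and 133 CPM in guide 2 OLs, against 296, 296 and 290.0 CPM in control OLs. All 6 targeted libraries lay below all 3 control libraries, by a margin far wider than the control range. The log2 fold change was -1.37 ± 0.15 (SE, edgeR adjusted p = 0.00101), which is 2.59-fold lower with a 95% interval of 2.04 to 3.28. In OPCs, Grik3 had 28.0 and 25.5 CPM with guide 1 and 33.2, 32.2 and 29.0 CPM with guide 2, against 60.7, 75.8 and 85.5 CPM in control OPCs. These groups did not overlap either, and the log2 fold change was -1.33 ± 0.11 (SE, edgeR adjusted p = 0.00074). The difference of the OL and OPC responses was -0.02, with a 95% interval of -0.46 to 0.43.

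Gria2, at chr3:80681450-80802835 on the minus strand, had 165 (library A), 93.9 (library B) and 153 CPM (library C) in guide 1 OLs and 155, 161 and 167 CPM in guide 2 OLs, against 296, 279 and 279 CPM in control OLs. Every targeted library was below every control library. The log2 fold change was -0.94 ± 0.15 (SE, edgeR adjusted p = 0.00747). In OPCs it had 79.6 and 80.9 CPM with guide 1 and 78.6, 88.7 and 87.6 CPM with guide 2, against 106, 113 and 128 CPM in controls. The OPC groups were again apart, with a smaller log2 fold change of -0.47 ± 0.08 (SE, edgeR adjusted p = 0.0142). That OPC call did not hold without control library B, where the adjusted p was 0.0536, nor without library A or library B of guide 1, where it was at most 0.0743. The OL call did not hold without control library A (edgeR adjusted p = 0.0522).

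Gria4, which encodes an AMPA subunit with fast gating and lies at chr9:4417896-4796234 on the minus strand, had 9.84, 7.48 and 9.18 CPM in guide 1 OLs and 11.1, 9.91 and 14 CPM in guide 2 OLs, against 20.8, 24.3 and 29.4 CPM in control OLs. The groups did not overlap, and the log2 fold change was -1.29 ± 0.16 (SE, edgeR adjusted p = 0.00197). In OPCs, Gria4 had 8.48 and 7.39 CPM with guide 1 and 9.59, 5.93 and 4.34 CPM with guide 2, against 15.4, 9.99 and 20.6 CPM in controls. The lowest control lay just above the highest targeted library, and the log2 difference of -1.06 ± 0.29 did not pass the threshold (SE, edgeR adjusted p = 0.0976). In the authors' deposited table for OPCs, which gives control over targeted, Gria4 had a log2 fold change of 0.88 with an adjusted p of 0.0119.

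Gabbr1 encodes the GABA-B subunit that binds GABA, at chr17:37045966-37075067 on the plus strand. It had 169, 167 and 165 CPM in guide 1 OLs and 172, 171 and 174 CPM in guide 2 OLs, against 107, 101 and 100.1 CPM in control OLs. All 6 targeted libraries were above all controls, library B of guide 1 among them. Gabbr1 rose 1.65-fold, with a 95% interval of 1.5 to 1.81 and a log2 fold change of 0.72 ± 0.06 (SE, edgeR adjusted p = 0.000239). In OPCs it had 50.2 and 44.4 CPM with guide 1 and 50.5, 47.3 and 45.6 CPM with guide 2, against 36.1, 34.6 and 44.3 CPM in controls. The ranges almost touched, and the log2 difference of 0.33 ± 0.09 did not pass the threshold (SE, edgeR adjusted p = 0.107). Without control OPC library C, Gabbr1 passed as higher in targeted OPCs, for both guides together and for each guide. On the TPM scale, library B of guide 1 OLs (49.5 TPM) lay within the control OLs (43.5 to 56.3 TPM), and the other 5 targeted libraries (75.6 to 84.6 TPM) lay above them.

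**Figure D2:**
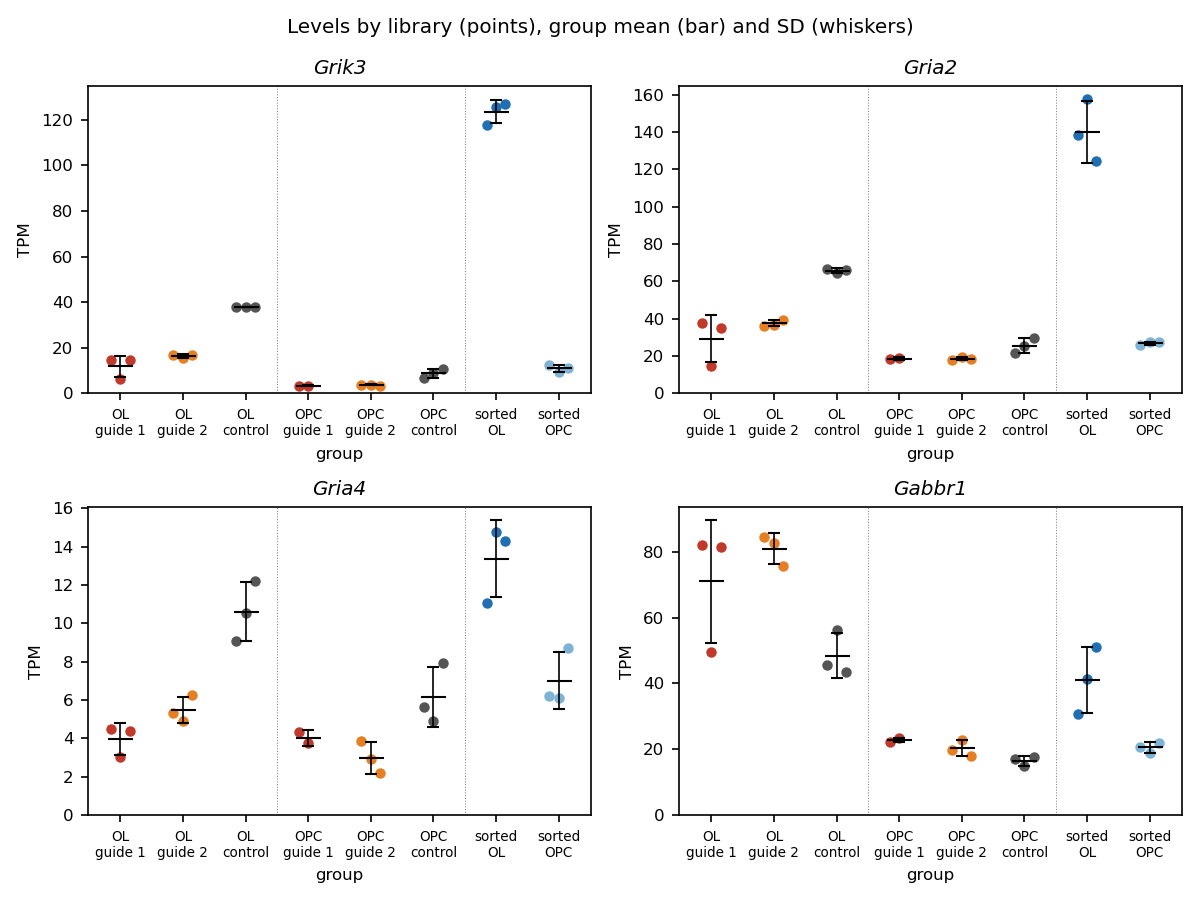
TPM of Grik3, Gria2, Gria4 and Gabbr1 in every library (points), with group mean (bar) and SD (whiskers); columns are guide 1, guide 2 and control OLs, the same 3 groups of OPCs, and sorted OLs and OPCs. Grik3, Gria2 and Gria4 are lower in all targeted OLs than in control OLs, and the lowest guide 1 OL point in each panel is library B.

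The promoter windows of these 4 genes are shown because 3 of the genes fell together and 1 rose. They are RefSeq sequences on GRCm38.p6, from 250 bases before to 50 bases after the annotated start, 5′ to 3′ on the gene's strand, and come from the reference assembly, not from the cells. Capitals mark a match to ACAAT or ACAAAG, short cores of the sequence that SOX proteins bind, searched on both strands (ATTGT and CTTTGT on the other).
Grik3 (chr4:125490446-125490745, plus strand): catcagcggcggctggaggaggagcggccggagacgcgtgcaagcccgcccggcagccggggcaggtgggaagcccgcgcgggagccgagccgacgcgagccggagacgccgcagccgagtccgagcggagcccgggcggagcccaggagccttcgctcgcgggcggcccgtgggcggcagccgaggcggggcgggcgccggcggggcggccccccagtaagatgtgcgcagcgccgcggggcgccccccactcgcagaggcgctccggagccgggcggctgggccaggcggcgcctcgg
Gria2 (chr3:80802786-80803085, minus strand): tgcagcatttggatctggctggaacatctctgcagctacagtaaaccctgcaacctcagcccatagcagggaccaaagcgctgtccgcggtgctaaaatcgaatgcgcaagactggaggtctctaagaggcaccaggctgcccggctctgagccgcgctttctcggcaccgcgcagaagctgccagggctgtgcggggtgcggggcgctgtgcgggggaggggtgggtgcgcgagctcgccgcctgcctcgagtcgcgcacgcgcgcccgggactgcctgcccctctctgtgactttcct
Gria4 (chr9:4796185-4796484, minus strand): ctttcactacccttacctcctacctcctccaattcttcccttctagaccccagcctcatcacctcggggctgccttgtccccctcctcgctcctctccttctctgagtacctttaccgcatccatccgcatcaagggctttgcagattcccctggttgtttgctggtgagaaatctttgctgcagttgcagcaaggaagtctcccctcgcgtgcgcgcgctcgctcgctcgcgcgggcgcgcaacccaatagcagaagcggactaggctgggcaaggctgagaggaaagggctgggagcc
Gabbr1 (chr17:37045716-37046015, plus strand): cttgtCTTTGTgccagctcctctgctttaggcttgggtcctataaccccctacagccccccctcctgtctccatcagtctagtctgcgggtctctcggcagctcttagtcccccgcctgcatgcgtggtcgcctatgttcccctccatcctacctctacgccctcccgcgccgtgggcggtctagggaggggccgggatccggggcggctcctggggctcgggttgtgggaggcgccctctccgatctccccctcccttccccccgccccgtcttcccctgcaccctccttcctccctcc
The Gabbr1 window held 1 match, CTTTGT, and the other 3 windows held none, which says only that these letters are absent there. Of all 32851 promoter windows, 31.0% held ACAAT, 18.7% held ACAAAG and 42.9% held either; of 38 windows for 31 receptor genes, 9, 3 and 10 did. These motifs share their first letters but cannot start at the same base. GC content was 82.0% for Grik3, 65.7% for Gria2, 59.7% for Gria4 and 67.3% for Gabbr1, against a median of 52.7% over all windows.

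Each guide alone gave the same calls with all libraries. Both guides were set against the same control libraries of their stage, so their calls are not independent of each other. Guide 1 and guide 2 OLs each had the same 4 receptor genes past the threshold, where 4.92% and 4.44% of all genes tested passed. Guide 1 and guide 2 OPCs each had Grik3 and Gria2, where 2.78% and 2.04% of all genes passed. These single-guide counts leaned on single libraries: for guide 2 OLs the count was 2 without any 1 of the control OLs or without library A or B of guide 2, and 8 without library B of guide 1. For guide 1 OPCs it was 0 without either guide 1 library, 1 without control library B or library B or C of guide 2, and 4 without control library C. For guide 2 OPCs it was 1 without control library B or without any 1 guide 2 library. Gria2 lost its call in guide 2 OLs without any 1 control or guide 2 library, and in guide 1 OLs without any 1 control library. In guide 1 OPCs, Gria2 lost its call without control library B, either guide 1 library, or library B or C of guide 2. In guide 2 OPCs, Gria2 lost its call without any 1 OPC library other than control library A. Gria4 lost its call in guide 2 OLs without control library B or C, or library A or B of guide 2. Gabbr1 kept its OL calls with each guide. With an offset for transcript length, Gria2 passed with neither guide in OPCs nor with guide 2 in OLs. Between guide 2 and guide 1, edgeR called no receptor gene in OLs and none in OPCs, where 0% of all genes passed at either stage; DESeq2 called none, and 1 receptor gene in OLs and 3 in OPCs had an unadjusted p under 0.05. Grik3 was lower by 1.58 on the log2 scale with guide 1 and by 1.16 with guide 2 in OLs, and the difference between guides was 0.41 with a 95% interval of -0.00067 to 0.83. Without library B of guide 1, the change with guide 1 was -1.37.

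Whether the response differed between stages was tested on the difference itself. With all libraries, no receptor gene of 28 tested passed the edgeR test of the OL response minus the OPC response, where 1.69% of all 14352 genes did; 4 had an unadjusted p under 0.05 (Gabbr1, Gabbr2, Gria2 and Gria3), and DESeq2 called Gabbr1 and Gria3. Gria3 counts were low and uneven, with 4.87, 0.50 and 0.637 CPM in control OPCs. Without library B of guide 1 OLs, Gabbr1 (0.41 ± 0.10), Gabbr2 (0.72 ± 0.09), Gabrb2 (1.17 ± 0.28) and Gria2 (-0.34 ± 0.08) passed on the log2 scale, with edgeR adjusted p from 0.000372 to 0.0333, where 4.46% of all genes did.

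Without that library, 8 of 26 receptor genes passed in targeted OLs, 5 higher and 3 lower, where 8.32% and 8.6% of all genes were higher and lower; guide 1 alone gave the same 8 genes, where 11.4% of all genes passed. The 3 lower genes were again Grik3, Gria4 and Gria2. Beside Gabbr1, the higher genes were Gabbr2 (0.71 ± 0.05), the partner subunit that couples GABA-B receptors to G proteins, Gabrb2 (1.57 ± 0.11), Grid1 (0.21 ± 0.05) and Grm5 (0.33 ± 0.04), all log2 fold changes with SE. Gabbr2 had 259, 124 and 263 CPM in guide 1 OLs and 318, 310 and 287 CPM in guide 2 OLs, against 182, 165 and 166 CPM in control OLs. Library B of guide 1 was below the controls, and the other 5 targeted libraries were above them. Gabrb2, a beta subunit of GABA-A receptors, had 18.6, 4.24 and 19.1 CPM with guide 1 and 18.6, 21.2 and 21.2 CPM with guide 2, against 6.5, 7.18 and 5.91 CPM in control OLs. With all libraries the edgeR adjusted p was 0.18 for Gabbr2 and 0.101 for Gabrb2, and the authors' deposited table gives Gabrb2 an adjusted p of 0.0094.

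**Figure D3:**
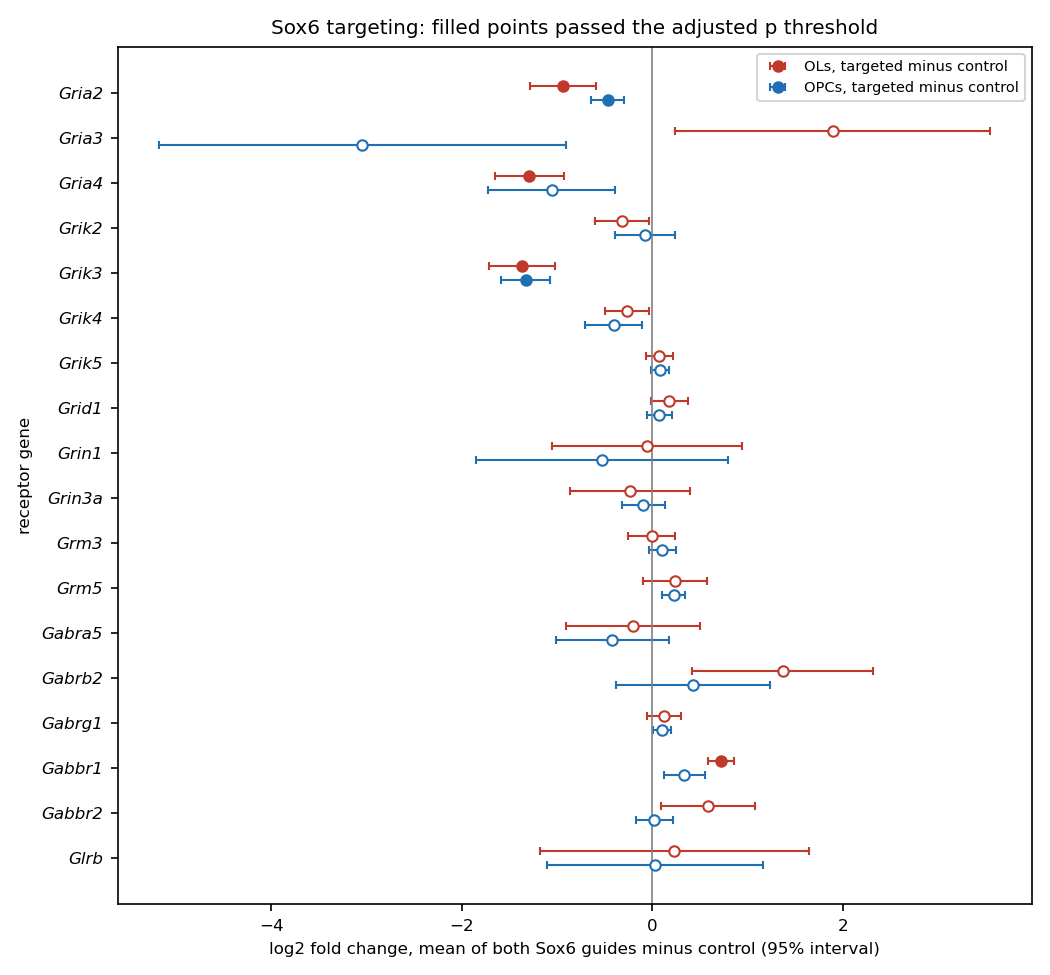
Log2 fold change (mean of both Sox6 guides minus control) with 95% intervals for 18 receptor genes that reached 1 TPM in some group and were tested at both stages, in OLs (red, upper) and OPCs (blue, lower); filled points passed the threshold. Grik3 lies near -1.37 in OLs and -1.33 in OPCs, and the intervals of Gria3 and Glrb are wide.

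Several well measured receptor genes did not pass under targeting, with narrow intervals. Grik5 differed by 0.07 in OLs, with a 95% interval of -0.07 to 0.21, and by 0.08 in OPCs, with an interval of -0.02 to 0.17, all on the log2 scale. Gabrg1 differed by 0.12 in OLs (interval -0.05 to 0.30) and 0.10 in OPCs (interval 0.0088 to 0.20), and Grm3, a receptor that lowers cyclic AMP, by -0.0093 (interval -0.26 to 0.24) and 0.10 (interval -0.03 to 0.24). Grm5 was 0.22 ± 0.05 higher in targeted OPCs on the log2 scale, with non-overlapping groups of 539.5 to 581 CPM in targeted OPCs and 457 to 520.2 CPM in control OPCs, and missed the threshold (edgeR adjusted p = 0.0591). Grin2c, an NMDA subunit gene with low counts, had 1.32 and 0 CPM in guide 1 OPCs and 0 CPM in all 3 guide 2 OPC libraries. Control OPCs had 2.37, 3.12 and 3.68 CPM, and Grin2c did not pass either (edgeR adjusted p = 0.0702). Both Grm5 and Grin2c passed in targeted OPCs with DESeq2 and with no filter on low counts. Grm5 also passed there without control library C.

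Markers of the lineage and of other cell types moved in the same comparisons. Of all genes tested, 3.13% were higher and 3.37% lower in targeted OLs, and 1.95% and 1.63% in targeted OPCs. Among OPC markers, 3 of 6 fell in targeted OLs (Sox10, Cspg4 and Olig2) and 1 of 6 in targeted OPCs (Sox10). Sox10 does not mark the OPC stage in these data. It was higher in control OLs than in control OPCs (log2 fold change 3.19 ± 0.10, SE). In sorted OLs it was higher than in sorted OPCs (4.01 ± 0.15 in log2(TPM + 1), SE). Among oligodendrocyte markers, 3 of 5 tested rose in targeted OLs (Mbp and Mobp among them) and 3 of 3 in targeted OPCs (Mbp and Cnp among them). The oligodendrocyte markers summed to between 1119.8 and 1753 TPM in targeted OLs (1487 TPM or more without library B of guide 1), against 1201 to 1363 TPM in control OLs, and to between 95.1 and 122 TPM in targeted OPCs, against 63.4 to 80.3 TPM in control OPCs. Of the neuron markers, 0 of 14 tested rose and 4 fell in targeted OLs, and 1 of 15 rose and 5 fell in targeted OPCs. Their summed level over 18 genes was 280 to 768 TPM in targeted OLs (690.0 to 768 TPM without library B of guide 1, which had the 280 TPM), against 838 to 846 TPM in control OLs, and 456 to 506 TPM in targeted OPCs, against 465 to 624 TPM in control OPCs; Slc17a6 was at 0 in all OPC groups and all targeted OLs. Of the astrocyte markers, 2 of 11 tested rose in targeted OLs and 5 of 11 in targeted OPCs, and none fell. Their sum over 12 genes was 6236 to 7145 TPM in targeted OLs, against 5443 to 5905 TPM in control OLs, and 920 to 1042 TPM in targeted OPCs, against 702 to 811 TPM in control OPCs. No microglia marker reached a group mean of 1 TPM. Without library B of guide 1, 8.32% and 8.6% of all genes tested were higher and lower in targeted OLs. The calls there were 1 higher and 3 lower of 6 OPC markers, and 4 and 1 of 5 oligodendrocyte markers. They were 7 and 1 of 11 astrocyte markers, and 1 and 6 of 16 neuron markers. The part of these cells and of the stage of the lineage in the receptor changes was not tested.

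Proteins that assemble with the receptors changed in mixed directions. Of 15 genes for AMPA and kainate auxiliary subunits, 12 were tested at each stage. In targeted OLs 4 rose and 2 fell (median log2 change 0.01), where 3.13% and 3.37% of all genes tested did. In targeted OPCs 1 rose and 3 fell (median -0.06), where 1.95% and 1.63% of all genes tested did. Neto1, which binds kainate receptors and slows their closing, had 53.2, 40.6 and 57.1 CPM with guide 1 and 63.1, 59.2 and 64.6 CPM with guide 2, against 118, 113 and 110.0 CPM in control OLs. It fell at both stages, with log2 fold changes of -1.02 ± 0.10 in OLs and -0.60 ± 0.07 in OPCs (SE, edgeR adjusted p = 0.000687 and 0.00344). Neto2, its relative, rose by 0.32 ± 0.08 in OLs (edgeR adjusted p = 0.0452). The AMPA receptor partners Cnih2 (0.79), Gsg1l (0.65) and Cacng8 (0.35) rose and Shisa7 (-0.97) fell in OLs, while in OPCs Cnih2 (0.45) rose and Olfm1 (-0.40) and Cacng4 (-0.20) fell, all as log2 fold changes.

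Of 21 scaffold genes of synapses, 20 were tested, and edgeR called 0 in targeted OLs (4 at an unadjusted p under 0.05). In targeted OPCs it called 1 (Nlgn2, -0.24 ± 0.05). These counts lie near the shares of all genes tested. Those were 3.13% higher and 3.37% lower in targeted OLs, and 1.95% and 1.63% in targeted OPCs. Of 23 genes that move, make or break down the transmitters, 16 were tested at each stage. Slc1a1, a glutamate uptake transporter, had 66.2, 61.5 and 72.4 CPM with guide 1 and 86.3, 77.6 and 87.3 CPM with guide 2, against 162, 168 and 167 CPM in control OLs. It fell by 1.15 ± 0.07 in OLs and by 0.70 ± 0.15 in OPCs on the log2 scale (SE, edgeR adjusted p = 5.05e-05 and 0.0436). Slc7a11, which exports glutamate in exchange for cystine, rose by 1.05 ± 0.15 in OLs and 0.41 ± 0.08 in OPCs, and the GABA breakdown enzyme Aldh5a1 rose in OPCs (0.24). The chloride importer Slc12a2 rose in OPCs by 0.57 ± 0.04 as the 1 of 5 chloride transporter genes tested that passed, and 0 of 5 passed in OLs (2 at an unadjusted p under 0.05). Without library B of guide 1, 8.32% and 8.6% of all genes tested were higher and lower in OLs. The OL counts were then 5 higher and 4 lower of 13 auxiliary subunits, and 0 and 3 of 20 scaffolds. They were 6 and 2 of 17 transport and metabolism genes, and 1 and 0 of 5 chloride transporters. Without that library the log2 fold change in OLs was -0.97 ± 0.05 for Neto1, -1.13 ± 0.05 for Slc1a1 and 1.13 ± 0.07 for Slc7a11. Neto2, Cnih2, Gsg1l, Cacng8 and Shisa7 passed in the same direction as with all libraries.

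Between growth and differentiation medium, more receptor genes passed as higher than as lower in control cells. Control OLs had 13 of 28 receptor genes tested higher, 3 lower and 12 not past the threshold, set against control OPCs, where 21.4% and 21.6% of all 14352 genes tested were higher and lower. The median log2 change of the receptor genes was 0.68, against 0.02 for all genes. Sorted OLs, tested with limma on log2(TPM + 1), had 10 of 16 receptor genes higher and 3 lower than sorted OPCs, where 26.6% and 34.5% of all 11901 genes tested were higher and lower, with a median difference of 1.00 for receptor genes and -0.14 for all genes. A gene whose libraries of 1 group all lie under the filter's minimum enters a test only through libraries elsewhere, so these counts and medians are descriptions; that held for 4 genes in control cultures (Grin2c among the genes called) and for Gria3 and Grin3a in sorted cells. Without such genes the counts were 13 higher and 2 lower of 24 in control cultures, and 9 higher and 2 lower of 14 in sorted cells. Of the 16 genes tested in both sets, 8 passed in both in the same direction, and Grm3 passed in both in opposite directions. The share of all genes that passed in both sets was not computed, so these counts are descriptions. The 8 genes include Grm5, whose call in control cultures was lost without any 1 control library.

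**Figure D4:**
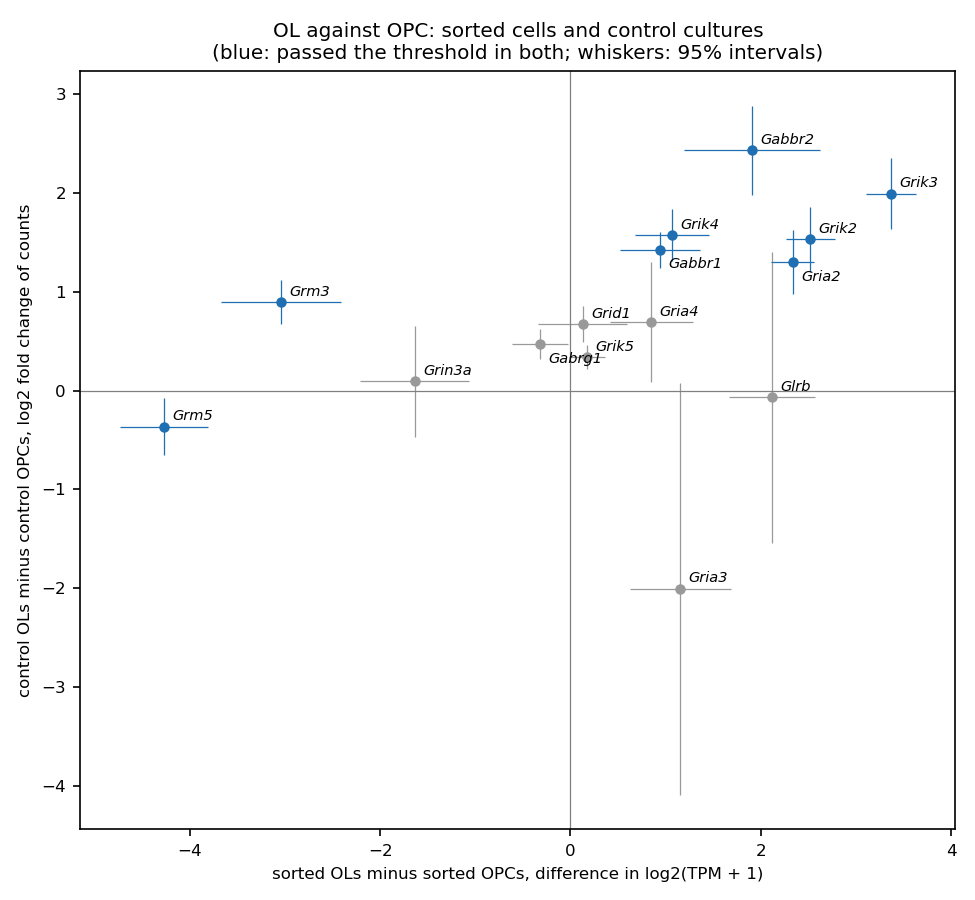
Log2 fold change of control OLs minus control OPCs (vertical, from counts) against the difference in log2(TPM + 1) of sorted OLs minus sorted OPCs (horizontal) for 15 receptor genes tested in both, with 95% intervals; blue genes passed the threshold in both. Grik3 is at the far right (3.37 and 1.99), Grm5 at the far left (-4.27 and -0.37), and Grm3 is the blue gene in the upper left.

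All 4 kainate genes tested rose in control OLs (Grik2, Grik3, Grik4 and Grik5). Grik3 had 296, 296 and 290.0 CPM in control OLs, against 60.7, 75.8 and 85.5 CPM in control OPCs (log2 fold change 1.99 ± 0.17, SE, edgeR adjusted p = 2.21e-07). In sorted cells it had 118, 126 and 127 TPM in OLs, against 12.6, 9.51 and 11.2 TPM in OPCs, a difference of 3.37 ± 0.11 in log2(TPM + 1) (limma adjusted p = 7.14e-07). It was the receptor gene with the largest rise in sorted OLs among those tested. Grik2, which forms the main kainate channels of the brain, had 73.9, 70.5 and 66.8 CPM in control OLs, against 21.1, 22.7 and 29.4 CPM in control OPCs, and 38.7, 39.2 and 35.5 TPM in sorted OLs, against 5.52, 5.46 and 6.33 TPM in sorted OPCs. Grik4, a partner subunit like Grik5, had 34.2, 36.4 and 36.2 CPM in control OLs, against 11.0, 13.7 and 11.3 CPM in control OPCs, and 6.07, 5.96 and 4.73 TPM in sorted OLs, against 2.09, 1.95 and 2.35 TPM in sorted OPCs. The groups of Grik2 and Grik4 did not overlap in either set, with log2 fold changes of 1.53 ± 0.15 and 1.57 ± 0.12 in control cultures.

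Grik5 moved least among kainate genes. It had 213, 212 and 220.1 CPM in control OLs, against 164, 176 and 171 CPM in control OPCs (log2 fold change 0.34 ± 0.06, edgeR adjusted p = 0.000196). In sorted cells it had 49.8, 57.1 and 57.7 TPM in OLs, against 48.5, 49.2 and 47.7 TPM in OPCs, a difference of 0.17 ± 0.08 that did not pass (limma adjusted p = 0.104). Grik3 thus made up 55.1% to 56.4% of the summed kainate TPM in sorted OLs, against 14.4% to 18.2% in sorted OPCs. Its share was 8.17% to 14.6% in targeted OLs, against 25.8% to 27.0% in control OLs, and 4.49% to 5.91% in targeted OPCs, against 11.1% to 13.6% in control OPCs. Within each of these 3 comparisons the ranges did not overlap.

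**Figure D5:**
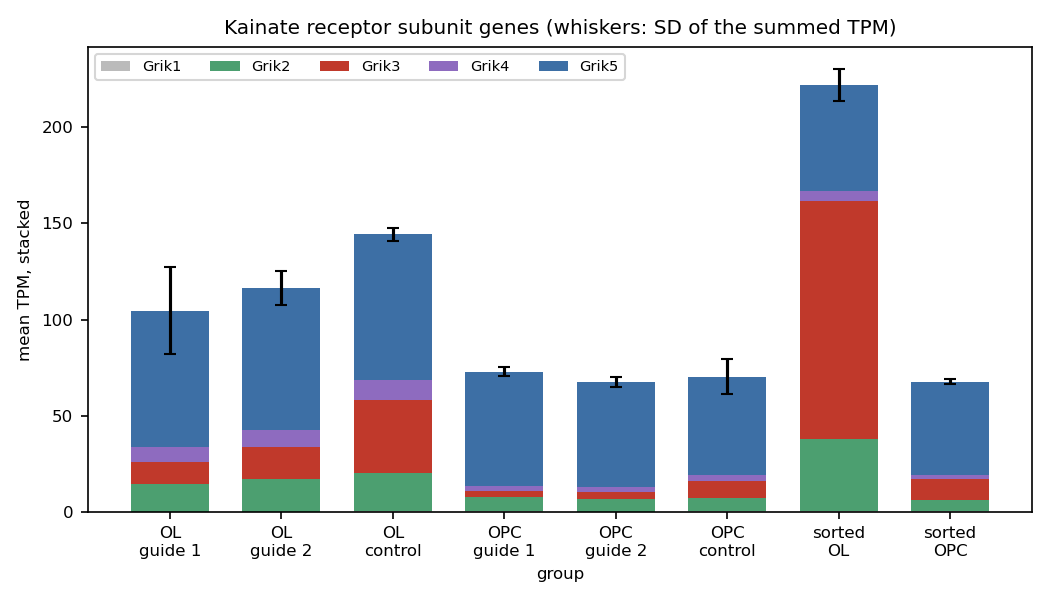
Mean TPM of the 5 kainate receptor subunit genes, stacked by group, with the SD of the summed TPM as whiskers. Grik5 is the largest part in every group but sorted OLs, where Grik3 holds 55.6% of the sum, against 16.4% in sorted OPCs.

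Among AMPA genes, Gria2 rose in control OLs by 1.29 ± 0.15 on the log2 scale from the CPM values given above (edgeR adjusted p = 6.48e-06). In sorted cells it had 138, 157 and 125 TPM in OLs, against 25.9, 27.4 and 27.3 TPM in OPCs (difference 2.33 ± 0.10, limma adjusted p = 1.95e-06). Gria4 had 11.1, 14.8 and 14.3 TPM in sorted OLs, against 6.20, 6.10 and 8.74 TPM in sorted OPCs, and passed there (0.85 ± 0.18, limma adjusted p = 0.00554). In control cultures its groups did not overlap, at 20.8 CPM and above in OLs and 20.6 CPM and below in OPCs. The difference of 0.69 ± 0.28 did not pass (edgeR adjusted p = 0.0606). DESeq2 called Gria4 higher there, as did edgeR with an offset for transcript length. So did edgeR without control OPC library C, library A or C of guide 2 OPCs, or library B of guide 1 OLs. Gria3 had 1.89, 2.80 and 2.34 TPM in sorted OLs, against 0.374, 0.921 and 0.252 TPM in sorted OPCs; it entered the test only through the OLs, so its call adds nothing to those values. Gria2 lies 40763 bases from Glrb on chromosome 3 with no protein-coding gene between them. Glrb had 19.8, 19.6 and 18.1 TPM in sorted OLs, against 3.74, 4.83 and 2.63 TPM in sorted OPCs (difference 2.12 ± 0.19, limma adjusted p = 7.71e-05), while its level in control cultures overlapped, at 2.54, 2.16 and 3.59 TPM in OLs and 4.40, 3.44 and 1.54 TPM in OPCs.

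Of the delta family, which encodes synapse organisers, Grid1 rose in control OLs. It had 95.5, 102 and 98.3 CPM in control OLs, against 60.1, 65.3 and 59.9 CPM in control OPCs (log2 fold change 0.67 ± 0.08), and 8.32, 6.56 and 11.1 TPM in sorted OLs, against 8.36, 6.90 and 7.81 TPM in sorted OPCs. The sorted groups of Grid1 overlapped and did not pass.

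Among metabotropic genes, Grm5 was lower in OLs of both sets, and Grm3 was lower in sorted OLs and higher in control OLs. Grm5 had 3.04, 2.49 and 1.41 TPM in sorted OLs, against 61.6, 63.9 and 59.0 TPM in sorted OPCs, the largest fall among receptor genes tested there (-4.27 ± 0.20 in log2(TPM + 1), limma adjusted p = 3.19e-06). In control cultures it had 389, 369 and 385 CPM in OLs, against 457, 496 and 520.2 CPM in OPCs, lower by 0.37 ± 0.13 on the log2 scale (edgeR adjusted p = 0.0405). That call was lost when libraries were scaled by their totals (edgeR adjusted p = 0.113) or with an offset for transcript length (0.286). Leaving out any 1 OPC library, any 1 control OL library, or library A or C of guide 2 OLs, lost the call too. Grm3 had 0.976, 1.31 and 2.64 TPM in sorted OLs, against 18.7, 16.9 and 25.2 TPM in sorted OPCs (-3.04 ± 0.27, limma adjusted p = 6.73e-05). In control cultures Grm3 had 108, 110.0 and 111 CPM in OLs, against 58.1, 55.5 and 63.5 CPM in OPCs, higher by 0.89 ± 0.10 (edgeR adjusted p = 6.32e-06). Grm4, at 2.49 to 2.96 CPM in control OLs, against 1.27 to 1.94 CPM in control OPCs, also rose there (0.84 ± 0.30, edgeR adjusted p = 0.0352). That call was lost with no filter on low counts, and without control OPC library B or C or any 1 of the control OL libraries (edgeR adjusted p at most 0.111).

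GABA-B genes rose in both sets. Gabbr1 rose by 1.42 ± 0.09 in control OLs on the log2 scale (edgeR adjusted p = 6.12e-09) and had 30.8, 41.4 and 51.0 TPM in sorted OLs, against 20.7, 18.9 and 22.0 TPM in sorted OPCs (0.94 ± 0.18, limma adjusted p = 0.00303). Gabbr2 had 182, 165 and 166 CPM in control OLs, against 28.3, 35.7 and 31.2 CPM in control OPCs (2.43 ± 0.21, edgeR adjusted p = 2.77e-07), and 10.5, 16.6 and 25.6 TPM in sorted OLs, against 3.28, 4.53 and 3.31 TPM in sorted OPCs (1.91 ± 0.30). No group overlapped its counterpart. Among GABA-A genes, Gabrb2 had 5.91 to 7.18 CPM in control OLs, against 0.812 to 1.20 CPM in control OPCs (2.69 ± 0.45), and stayed at or below 0.492 TPM in every sorted library. Gabrg1 had 164, 153 and 151 CPM in control OLs, against 116, 113 and 109 CPM in control OPCs (0.47 ± 0.07), and 20.3, 19 and 21.3 TPM in sorted OLs, against 22.2, 24.9 and 29.6 TPM in sorted OPCs, a difference of -0.32 ± 0.12 that did not pass (limma adjusted p = 0.0602).

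No NMDA gene was called higher by edgeR in control OLs with all libraries or by limma in sorted OLs. DESeq2 called Grin1 higher in control OLs, as did edgeR without library A or B of guide 1 OPCs or library B of guide 2 OLs. Grin2a had 0.928 to 1.32 CPM in control OLs, against 3.58 to 4.67 CPM in control OPCs (-1.90 ± 0.23, edgeR adjusted p = 9.79e-06). Grin2c was at 0 in all OL libraries, against 2.37 to 3.68 CPM in control OPCs, and entered the test only through OPC libraries; edgeR gave an adjusted p of 0.0126 and DESeq2 one of 0.205. Grin3a had 0.783, 0.892 and 0.405 TPM in sorted OLs, against 6.00, 3.71 and 3.33 TPM in sorted OPCs and entered the test only through the OPCs, so its call adds nothing to those values. Its culture groups overlapped, at 5.05 to 6.64 TPM in control OLs and 4.22 to 5.66 TPM in control OPCs.

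The cell type markers of the sorted and the unsorted cells were compared with stage as well, each set in its own test. In sorted OLs 26.6% and 34.5% of all genes tested were higher and lower, and in control OLs 21.4% and 21.6%. Summed oligodendrocyte markers were at 25694 to 26088 TPM in sorted OLs, against 45.7 to 74.8 TPM in sorted OPCs, and at 1201 to 1363 TPM in control OLs, against 63.4 to 80.3 TPM in control OPCs. Summed astrocyte markers were at 2122 to 4259 TPM in sorted OLs, against 573 to 644 TPM in sorted OPCs. They were at 5443 to 5905 TPM in control OLs, against 702 to 811 TPM in control OPCs. Of the astrocyte markers tested, 5 of 10 were higher and 1 lower in sorted OLs. In control OLs 9 of 11 astrocyte markers tested were higher and 0 lower. Summed neuron markers were at 457 to 534 TPM in sorted OLs, against 476 to 548 TPM in sorted OPCs (2 of 12 tested higher and 5 lower), and at 838 to 846 TPM in control OLs, against 465 to 624 TPM in control OPCs (7 of 16 tested higher and 1 lower). Of the 6 OPC markers, 1 was higher (Sox10) and 5 lower in sorted OLs. In control OLs 3 were higher (Sox10 and Pdgfra among them) and 3 lower. Pdgfra, the growth factor receptor that marks OPCs, was lower in sorted OLs (-2.74 ± 0.33 in log2(TPM + 1)) and higher in control OLs (log2 fold change 2.30 ± 0.32). The part of these cell types in the receptor levels was not tested.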

How the data were processed

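Polyadenylated RNA was sequenced in 23 libraries with a kit that does not mark strand, per the labels' protocols. Salmon 0.14.1, DESeq2 and genome build mm10 are named in the submitters' processing notes; no source used here gives the way transcripts were summed to genes. For the SOX6 experiment the deposited values are estimated counts by gene symbol, rounded here, and TPM values were deposited for all libraries. Log2 fold changes and adjusted p-values of the authors' deposited tables were copied only where named.

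Counts were tested per stage with edgeR 4.0.16 in R 4.3.3 (TMM scaling, filterByExpr with a minimum count of 10 and a total of 15, quasi-likelihood test, Benjamini-Hochberg adjustment over all genes tested, threshold 0.05). The response by stage and the control OLs against control OPCs came from 1 fit of 17 libraries, whose tables were deposited separately. For sorted cells, limma 3.58.1 was run on log2(TPM + 1) values of genes at 1 TPM or more in at least 3 libraries; such differences understate the change of low genes. CPM values are TMM-scaled over the 17 libraries. Scripts were tested on simulated data. Gene positions are from GENCODE M21 and promoter windows from RefSeq.

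The members and gene lists were chosen with earlier results of these data known. Receptor genes called in a main comparison are named, with values for each library for those called after targeting or at 10 TPM or more; a few genes counted in the totals are not reported here by name. Other genes are named for context. Alternatives were size factors of DESeq2 (RLE), library totals, no filter on low counts, DESeq2 1.42.0, a transcript length offset, both stages in 1 fit, a pseudocount of 0.1, median centring and leaving out each library.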

Additional observations from a re-analysis of the deposited data

Results flagged for a closer look

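For 4 genes, TPM moved one way between sorted OLs and sorted OPCs and the opposite way between control OLs and control OPCs. The TPM ranges of the libraries did not overlap in either set. The share of all genes with this pattern was not computed. The log2 ratio of mean TPM, OLs over OPCs, was -3.63 in sorted cells and 1.03 in control cultures for Grm3, which passed its test in both sets. It was -0.34 and 0.59 for Gabrg1, which passed only in the cultures. It was -1.78 and 2.23 for Gabrb2, and -2.38 and 0.99 for Gabrg3, a gamma subunit of GABA-A receptors. Both were under the filter on low values in sorted cells. Gabrg3 did not pass in the cultures, where all control OPC libraries lay under the filter's minimum. On the CPM scale its control groups overlapped, at 0.567 to 1.04 CPM in OLs and 0.312 to 0.573 CPM in OPCs. The difference between the sets was not tested, since the tables hold separate experiments. Sorted OLs also had far higher summed oligodendrocyte markers than control OLs (25694 to 26088 TPM, against 1201 to 1363 TPM).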

How the results depend on the processing

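Counts of receptor genes past the threshold moved by 1.5 times or more in these cases. For targeted OPCs against control OPCs (2), no filter on low counts gave 5 and DESeq2 gave 6. For targeted OLs against control OLs (4), both stages in 1 fit gave 7, while DESeq2 gave 6. For OPC guide 1 (2) and OPC guide 2 (2), the length offset gave 1, both stages in 1 fit gave 1 and DESeq2 gave 4 for each. No filter on low counts gave 3 for OPC guide 2. For OL guide 2 (4), both stages in 1 fit gave 7 and DESeq2 gave 6. For the OL response minus the OPC response (0), DESeq2 gave 2. Leaving out 1 library gave 1 to 4 for targeted OPCs, 3 to 8 for targeted OLs, 0 to 4 and 1 to 2 for OPC guides 1 and 2, 3 to 8 and 2 to 8 for OL guides 1 and 2, 0 to 0 for the guide differences, 0 to 4 for the response by stage, 14 to 17 for control OLs against control OPCs and 12 to 13 for the sorted cells. The highest OL counts came without library B of guide 1.

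Grik3 stayed past the threshold under every alternative run for both guides against control; without 1 library its log2 fold change was -1.44 to -1.27 in OLs and -1.46 to -1.21 in OPCs. In OPCs with guide 1, it did not pass when either library of that group was left out (edgeR adjusted p = 0.0620 and 0.0651); the lone library left is then assumed to vary like the other groups. In OLs with guide 2, it did not pass without control library A (edgeR adjusted p = 0.0506). With both stages in 1 fit, Gria2 lost its OPC call (edgeR adjusted p = 0.103) and Gria4 passed there. No receptor gene called in a comparison changed direction there under the alternatives run; other named genes were not run under all of them. Scaling by library totals moved the median of all genes by under 0.1 on the log2 scale. No paired analysis was possible because the columns carry letters that the labels do not tie to the labels' replicate numbers. Depth limits genes near the filter, such as Gria3, Grin2c and Grin1.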
